A study of Mus musculus with 9 samples.

Results

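Transcript levels of 9 genes of the Hedgehog pathway were followed in mouse ES cells that were wild type (WT) or carried a Dgcr8 knockout (Dgcr8 KO) or a Dicer knockout (Dicer KO). The genes were the ligands Shh, Ihh and Dhh, the ligand-binding or transducing membrane proteins Hhip, Ptch1 and Smo, and the transcription factors Gli1, Gli2 and Gli3. They are 9 of the 22980 transcripts counted on the array, and each was read by 1 transcript cluster, a set of probes along 1 gene summarised as 1 value. Hhip was chosen by its measured log2 ratio to WT, among the largest in both mutants, and the other 8 were included because they belong to the pathway. The ratios of Hhip to WT are therefore given as a description with no test. The WT cells were of the v6.5 line, Dgcr8 KO cells lacked Dgcr8, the RNA-binding partner of Drosha, and Dicer KO cells lacked the RNase Dicer1. The labels list no treatment for any of them. Each genotype was measured on 3 Affymetrix arrays of total RNA. The methods call the arrays of a genotype biological replicates, whereas the labels describe plating in triplicate. The p-values may therefore measure only the spread between parallel cultures. How many lines or clones stood behind each genotype was not given in the sources used here, so a mutation and anything peculiar to a line cannot be told apart.

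Hedgehog ligands are secreted, lipid-modified proteins. Without ligand the receptor Ptch1 holds the transmembrane protein Smo inactive, and the Gli proteins, above all Gli3, are cut into repressors with the help of Sufu and a set of kinases. Ligand bound to Ptch1 frees Smo, which signals from the primary cilium, and Gli2 then acts as an activator. Gli1, Ptch1 and Hhip are direct targets of Gli activators, and Ptch1 and Hhip in turn bind the ligand, so that the pathway limits itself. Hhip is a membrane-bound and secreted decoy that takes up ligand without signalling. The pathway is best known for patterning the neural tube and limb rather than for a role in ES cells.

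The arrays fitted their labels. Dgcr8 was lowest on the Dgcr8 KO arrays, at log2 levels of 8.74 to 8.96 against 9.76 to 9.82 in WT, and Dicer1 was lowest on the Dicer KO arrays, at 8.32 to 8.43 against 10.18 to 10.23. The mean log2 level over 10 ES cell markers ran from 11.20 to 11.27 in WT, from 11.47 to 11.52 in Dgcr8 KO and from 11.56 to 11.58 in Dicer KO, and 7 of the 10 were called higher and 1 lower in each mutant at an adjusted p under 0.05. For Dgcr8 KO, 15.7% of all transcripts were called higher and 17.3% lower than WT, and for Dicer KO these shares were 17.8% and 19.1%. The values are normalized log2 levels with no detection call. Whether a low value lies above the array's background is therefore unknown, and levels are compared between arrays and never between genes. WT replicate 1 and Dgcr8 KO replicate 2 lay at opposite ends of the first principal component of the deviations from genotype means (scores 0.666 and -0.444, with 40.8% of their variance). The RNA came from whole cultures, in which fewer cells of a type and less RNA per cell cannot be told apart.

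The 3 ligand genes did not pass the test in any comparison. Shh, the ligand of the notochord and floor plate, had log2 levels of 6.54, 6.29 and 6.30 for WT, 6.43, 6.13 and 6.33 for Dgcr8 KO and 6.20, 6.22 and 6.31 for Dicer KO. Ihh, which acts in cartilage and is made by visceral endoderm in the early embryo, had log2 levels of 7.68, 7.11 and 6.75 for WT, 7.31, 7.20 and 7.15 for Dgcr8 KO and 7.15, 6.82 and 7.09 for Dicer KO. Dhh, the ligand of Sertoli and Schwann cells, had log2 levels of 5.55, 5.60 and 5.55 for WT, 5.72, 5.40 and 5.55 for Dgcr8 KO and 5.53, 5.38 and 5.55 for Dicer KO. The arrays of the 3 genotypes overlapped for all 3 ligands, and Ihh varied more among the WT arrays than between genotypes. The log2 ratios to WT were -0.08 and -0.13 for Shh in Dgcr8 KO and Dicer KO (standard error 0.091), 0.04 and -0.16 for Ihh (standard error 0.197) and -0.01 and -0.08 for Dhh (standard error 0.0822). Their adjusted p from limma, taken by Benjamini-Hochberg over all 22980 transcripts, was 0.299 or more. With these errors a small change of a ligand would not have been detectable.

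Hhip was far higher in both mutants than in WT. WT arrays gave log2 levels of 5.60, 5.49 and 5.80, Dgcr8 KO arrays gave 8.70, 8.82 and 8.81, and Dicer KO arrays gave 8.11, 8.10 and 8.11. The 3 genotypes did not overlap, and the Dicer KO arrays lay between the others. The log2 ratio to WT was 3.15 in Dgcr8 KO, an 8.86-fold difference, and 2.48 in Dicer KO, a 5.58-fold difference, both with a standard error of 0.076. These ratios rank 9 and 37 among the 22980 transcripts, and they are the values for which Hhip was chosen. The difference between the mutants was not a criterion of that choice. It is, however, the difference of these 2 ratios and uses the same mutant arrays, so its p-value is not free of the choice. Hhip in Dgcr8 KO exceeded Hhip in Dicer KO 1.59-fold, a log2 ratio of 0.67 (standard error 0.076, limma adjusted p = 0.000214).

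The sequence before the start site was looked at because Hhip, Smo and Gli3 were among the members whose levels differed most between genotypes. RefSeq windows of the 250 bases upstream of a start site (GRCm38.p6) matched 7 of the 9 genes by symbol, all but Shh and Gli1. The stretches below are the parts of those windows that lie outside the annotated gene. They are read 5′ to 3′ on the gene's strand, with each CpG dinucleotide in capitals. The windows of Ptch1 and Gli2 lay wholly inside the annotated gene and have no such part. Hhip lies on the minus strand of chromosome 8 (the gene spans 79965850 to 80058060), and 198 bases at chr8:80058061-80058258 are shown. Smo lies on the plus strand of chromosome 6, with 250 bases at chr6:29735247-29735496, and Gli3 on the plus strand of chromosome 13, with 250 bases at chr13:15463473-15463722.
Hhip: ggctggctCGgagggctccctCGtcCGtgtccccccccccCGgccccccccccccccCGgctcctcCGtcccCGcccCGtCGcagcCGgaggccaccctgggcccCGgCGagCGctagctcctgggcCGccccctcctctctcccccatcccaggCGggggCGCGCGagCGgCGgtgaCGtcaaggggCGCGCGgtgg
Smo: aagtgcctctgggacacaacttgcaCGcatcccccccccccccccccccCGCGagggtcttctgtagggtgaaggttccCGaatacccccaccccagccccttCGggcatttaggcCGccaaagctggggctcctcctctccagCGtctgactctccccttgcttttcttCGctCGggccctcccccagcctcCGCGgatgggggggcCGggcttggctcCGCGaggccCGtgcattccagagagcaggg
Gli3: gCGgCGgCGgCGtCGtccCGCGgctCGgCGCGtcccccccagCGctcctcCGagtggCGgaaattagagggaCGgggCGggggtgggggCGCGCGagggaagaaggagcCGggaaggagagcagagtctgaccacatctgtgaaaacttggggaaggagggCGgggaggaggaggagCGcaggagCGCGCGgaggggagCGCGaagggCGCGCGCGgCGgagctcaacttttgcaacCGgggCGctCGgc
The whole 250-base windows held 28 CpG dinucleotides for Hhip, 15 for Smo and 34 for Gli3, against a median of 6 over 32851 such windows. Fewer were found in 92.4% of windows for Hhip, 72.7% for Smo and 96.5% for Gli3. The windows of Ptch1, Ihh, Gli2 and Dhh held 41, 24, 22 and 9, with fewer in 98.9%, 88%, 85.2% and 59.7% of windows. Ihh, which was not called in any comparison, thus held more than Smo. The Gli consensus GACCACCCA, searched on both strands, was not in the window of any of the 7 members, either exactly or with 1 mismatch. It was present exactly in 0.225% of all windows and with at most 1 mismatch in 5.79%, so these letters are rare in windows of this length, and sites farther away were not searched.

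The receptor Ptch1 went opposite ways in the mutants. Its log2 levels were 10.09, 10.10 and 10.18 for WT, 10.42, 10.36 and 10.31 for Dgcr8 KO and 9.72, 9.64 and 9.63 for Dicer KO, with no overlap between genotypes. Relative to WT it rose by 0.24 on the log2 scale in Dgcr8 KO (standard error 0.0521, limma adjusted p = 0.00573), or 1.18-fold. In Dicer KO its log2 ratio was -0.46 (adjusted p = 8.54e-05), or 1.38-fold lower. The mutants differed directly by 0.70 (adjusted p = 1.66e-05), 1.63-fold higher in Dgcr8 KO.

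Smo, the signal transducer that Ptch1 restrains, was lower in both mutants. Its log2 levels were 8.58, 8.52 and 8.56 for WT, 8.16, 8.13 and 8.14 for Dgcr8 KO and 7.75, 7.87 and 7.65 for Dicer KO. The Dicer KO arrays were lowest, and no array of 1 genotype reached another genotype. The log2 ratio to WT was -0.41 in Dgcr8 KO (standard error 0.0581, limma adjusted p = 0.000468), 1.32-fold lower, and -0.79 in Dicer KO (adjusted p = 4.89e-06), 1.73-fold lower. The direct difference of 0.39 between the mutants also passed the test (adjusted p = 0.00113).

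The 3 Gli genes each had their own pattern. Gli1, an activator and a target of the pathway, had log2 levels of 9.05, 9.13 and 9.21 for WT, 9.43, 9.41 and 9.38 for Dgcr8 KO and 9.28, 9.24 and 9.31 for Dicer KO. All mutant arrays were above all WT arrays. Gli1 rose by 0.28 on the log2 scale in Dgcr8 KO (standard error 0.0525, limma adjusted p = 0.00241). In Dicer KO the log2 ratio of 0.15 did not pass (adjusted p = 0.0516), although it passed in 5 of 22 alternatives, 2 of them other scalings of the arrays, with adjusted p between 0.0199 and 0.283, among them the fit without WT replicate 3 (adjusted p = 0.0242). The direct difference of 0.13 in Gli1 did not pass (adjusted p = 0.105), but did in 2 of the 22 alternatives, both other scalings, with adjusted p between 0.00908 and 0.42. Gli2, the main activator, had log2 levels of 7.89, 7.91 and 7.99 for WT, 7.87, 8.11 and 8.01 for Dgcr8 KO and 7.59, 7.54 and 7.45 for Dicer KO. Only the Dicer KO arrays stood apart, differing from WT by -0.40 (standard error 0.07, adjusted p = 0.00145), against 0.07 (adjusted p = 0.556) in Dgcr8 KO. The mutants differed directly in Gli2 by 0.47 (adjusted p = 0.00117). Gli3, the main source of the repressor form, had log2 levels of 7.37, 7.46 and 7.43 for WT, 7.78, 7.82 and 7.81 for Dgcr8 KO and 7.08, 7.12 and 7.00 for Dicer KO. Like Ptch1 it was called in opposite directions: in Dgcr8 KO its difference from WT on the log2 scale was 0.38 (standard error 0.0488, adjusted p = 0.000223), and in Dicer KO it was -0.35 (adjusted p = 0.000336). The direct difference of 0.73 (adjusted p = 9.09e-06), 1.66-fold, also passed.

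**Figure D1:**
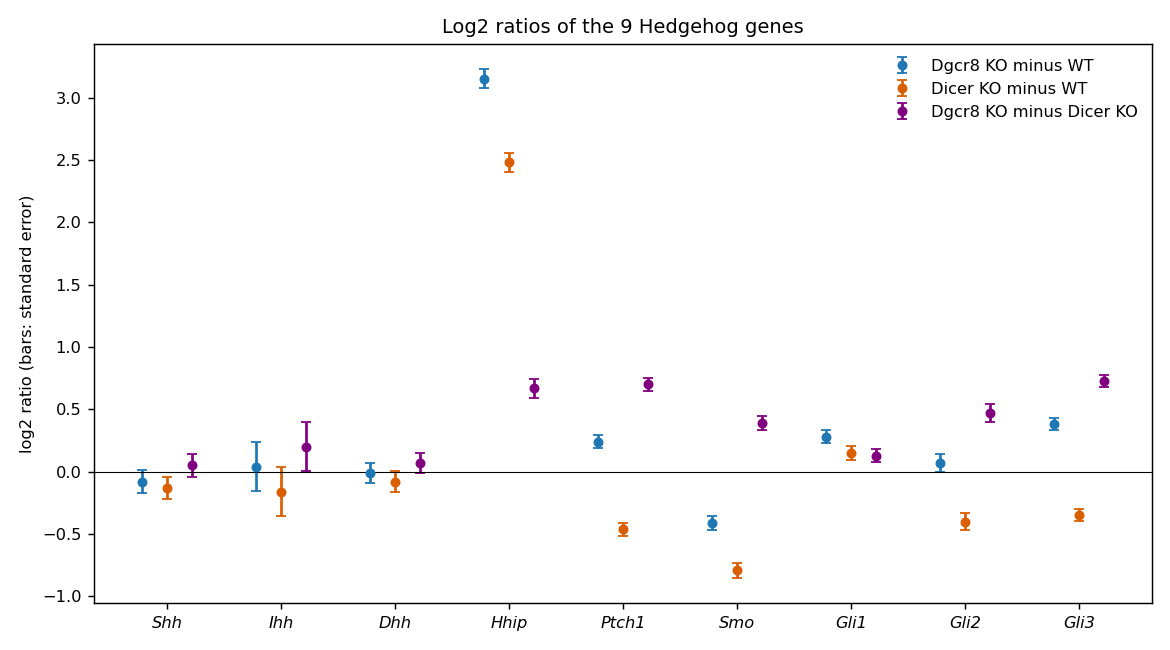
Log2 ratios of the 9 genes (vertical axis) for Dgcr8 KO minus WT (blue), Dicer KO minus WT (orange) and Dgcr8 KO minus Dicer KO (purple), with bars for the standard error from limma. Hhip stands at 3.15 and 2.48 against WT, and the direct differences of Ptch1, Smo, Gli2, Gli3 and Hhip lie between 0.39 and 0.73.

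Without Hhip, 4 of the 8 members were called in each of the 3 comparisons, at an adjusted p under 0.05. In Dgcr8 KO against WT, 3 were higher (Ptch1, Gli1, Gli3) and 1 was lower (Smo), where 33.0% of all transcripts were called, 15.7% higher and 17.3% lower. In Dicer KO against WT none was higher and 4 were lower (Ptch1, Smo, Gli2, Gli3), where 36.9% were called, 17.8% higher and 19.1% lower. Between the mutants 4 were higher in Dgcr8 KO (Ptch1, Smo, Gli2, Gli3) and 0 were lower, where 24.6% were called, 11.2% higher and 13.4% lower. The median log2 ratio of the 8 was 0.05, -0.25 and 0.29 in these comparisons, against medians of -0.0102, -0.0573 and 0.0352 over all transcripts. The comparisons share arrays in pairs and are not independent of each other. The changes other than that of Hhip were small. At 1.5-fold or more 0 of the 8 were called in Dgcr8 KO, 1 in Dicer KO and 2 between the mutants. SAM, the test named in the study's methods, was rewritten here with 20 label permutations rather than run from the study's package. Its counts may therefore differ from those of the package. It called 2 of the 8 in Dgcr8 KO (Smo and Gli3). At 1.5-fold or more, 1268 of all 22980 transcripts were called higher and 815 lower in Dgcr8 KO. Those counts were 1650 and 849 in Dicer KO, and 509 and 629 between the mutants. SAM called 2542 of all transcripts higher and 2232 lower in Dgcr8 KO.

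Among 47 other measured genes of the pathway, the shares called at an adjusted p under 0.05 were near those of all transcripts. Of their 50 transcript clusters, Dgcr8 KO had 11 above and 4 below WT, Dicer KO had 11 above and 10 below WT, and 9 were above and 5 below in Dgcr8 KO when it was set against Dicer KO. These make 30%, 42% and 28% of the clusters. At 1.5-fold or more 3, 9 and 5 were called, and by SAM 6 were called in Dgcr8 KO and 24 between the mutants. The counts over all transcripts at 1.5-fold or more, and by SAM in Dgcr8 KO, are given above. Between the mutants SAM called 4494 of all 22980 transcripts higher and 3868 lower in Dgcr8 KO, against 2576 and 3082 by limma.

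Of 8 clusters of genes that prepare and release the ligand (Hhat, Hhatl, Disp1, Disp2 and Scube1 to Scube3), limma called 0 in Dgcr8 KO, 1 in Dicer KO and 1 between the mutants, against 33.0%, 36.9% and 24.6% of all transcripts. In Dicer KO 1 of the 2 clusters of Disp1, the transporter that releases the ligand, rose by 0.20 (adjusted p = 0.0274), and the other had a log2 ratio of 0.07 (adjusted p = 0.265). The Disp1 call was lost without WT replicate 1 or 3 or Dicer KO replicate 1 or 3 (adjusted p from 0.0601 to 0.0948). Scube3, a secreted carrier of the ligand, was higher in Dgcr8 KO than in Dicer KO by 0.28 (adjusted p = 0.00999). The co-receptors Boc, Cdon and Gas1 were not called in any comparison. Lrp2 (megalin), an endocytic receptor that also binds Shh, had log2 levels of 9.82, 9.88 and 9.92 for WT, 9.65, 9.75 and 9.63 for Dgcr8 KO and 8.32, 8.37 and 8.30 for Dicer KO. The Dicer KO arrays were set apart from all others. The log2 ratio of Lrp2 to WT was -1.54 (standard error 0.0529, limma adjusted p = 4.81e-08) in Dicer KO, 2.91-fold lower, and -0.19 (adjusted p = 0.0184) in Dgcr8 KO, and the mutants differed by 1.35 (adjusted p = 4.46e-07). In Dgcr8 KO, Lrp2 no longer passed without WT replicate 2 or 3 or Dgcr8 KO replicate 1 or 3 (adjusted p from 0.0514 to 0.0671).

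Among Sufu and the genes of the primary cilium, the largest ratios were those of Evc and Evc2 in Dicer KO. Of 12 clusters, Dgcr8 KO had 4 above and 1 below WT, and Dicer KO had 1 above and 5 below. These are 41.7% and 50% of the list, against 33.0% and 36.9% of all transcripts. Evc and Evc2 encode partner proteins at the base of the cilium that relay the signal of Smo. Evc had log2 levels of 8.01, 8.02 and 8.08 for WT, 7.84, 8.03 and 8.00 for Dgcr8 KO and 6.94, 6.97 and 7.04 for Dicer KO. Evc2 had log2 levels of 7.53, 7.76 and 7.67 for WT, 7.32, 7.42 and 7.32 for Dgcr8 KO and 6.53, 6.89 and 6.94 for Dicer KO. Both genes were lowest on the Dicer KO arrays, with log2 ratios to WT of -1.06 (adjusted p = 9.86e-07) and -0.87 (adjusted p = 0.000144), against -0.08 and -0.30, neither of them called, in Dgcr8 KO. That of Evc2 in Dgcr8 KO passed without WT replicate 1 (adjusted p = 0.0414) or Dicer KO replicate 1 (adjusted p = 0.00966). The mutants differed in Evc by 0.97 (adjusted p = 6.07e-06) and in Evc2 by 0.57 (adjusted p = 0.00398). Evc and Evc2 are neighbours on chromosome 5 (GRCm38.p6), transcribed away from each other, with 1530 bases between their annotated ends. Tulp3, which carries receptors such as Gpr161 into the cilium and restrains the pathway, went opposite ways as Ptch1 and Gli3 did. Its log2 levels were 8.98, 9.04 and 8.99 for WT, 9.25, 9.30 and 9.24 for Dgcr8 KO and 8.45, 8.46 and 8.44 for Dicer KO, with no overlap. In Dgcr8 KO its log2 ratio to WT was 0.26 (standard error 0.0431, adjusted p = 0.00112), and in Dicer KO it was -0.55 (adjusted p = 7.64e-06), a direct difference of 0.81 (adjusted p = 2.45e-06). Kif3a, a subunit of the kinesin that builds cilia, rose in both, by 0.37 (adjusted p = 0.00052) and 0.66 (adjusted p = 1.09e-05). Sufu, the main inhibitor of Gli proteins, had log2 ratios of -0.21 (adjusted p = 0.00643) and -0.23 (adjusted p = 0.00331).

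Of 12 clusters of kinases and ubiquitin ligases that act on Gli proteins, Dgcr8 KO had 4 above and 1 below WT, Dicer KO had 7 above and 1 below, and between the mutants 0 were higher and 4 lower in Dgcr8 KO. The shares called were 41.7%, 66.7% and 33.3%, against 33.0%, 36.9% and 24.6% of all transcripts. Gsk3b, a kinase that marks Gli3 for cutting, had log2 levels of 8.64, 8.90 and 8.83 for WT, 9.21, 9.30 and 9.26 for Dgcr8 KO and 9.51, 9.63 and 9.44 for Dicer KO. The genotypes did not overlap. Gsk3b rose by 0.47 (standard error 0.0767, limma adjusted p = 0.00111) in Dgcr8 KO and by 0.74 (adjusted p = 5.03e-05) in Dicer KO. The direct difference of -0.27 (adjusted p = 0.0297) was lost without Dgcr8 KO replicate 1 or 3 or Dicer KO replicate 1 or 2 (adjusted p from 0.0725 to 0.11). Btrc, the ligase adaptor that recognises the marked Gli3, rose by 0.42 (adjusted p = 0.000219) and 0.44 (adjusted p = 0.000143). Spop, an adaptor that directs full-length Gli2 and Gli3 to degradation, rose by 0.20 (adjusted p = 0.00601) and 0.49 (adjusted p = 1.53e-05). Ulk3, a kinase of Gli proteins, rose by 0.30 (adjusted p = 0.00307) in Dicer KO, with 0.06 (adjusted p = 0.526) in Dgcr8 KO and a direct difference of -0.24 (adjusted p = 0.0162), which was lost without Dgcr8 KO replicate 1 or 3 or Dicer KO replicate 3 (adjusted p from 0.0516 to 0.0572). These kinases and ligases serve many other pathways as well.

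Of 14 clusters of reported Hedgehog target genes other than Gli1, Ptch1 and Hhip, Dgcr8 KO had 3 above and 1 below WT, Dicer KO had 2 above and 3 below, and between the mutants 4 were higher and 0 lower in Dgcr8 KO. The shares called, 28.6%, 35.7% and 28.6%, were near the 33.0%, 36.9% and 24.6% of all transcripts. Sfrp1, a secreted Wnt antagonist, had log2 levels of 7.35, 7.53 and 7.64 for WT, 10.16, 10.12 and 10.16 for Dgcr8 KO and 9.69, 9.71 and 9.69 for Dicer KO. As for Hhip, the Dicer KO arrays lay between WT and Dgcr8 KO. Sfrp1 rose by 2.64 (standard error 0.0688, limma adjusted p = 1.45e-08) and 2.19 (adjusted p = 2.85e-08) over WT, and the mutants differed by 0.45 (adjusted p = 0.00128). Ccnd2, a G1 cyclin, had log2 levels of 7.98, 8.02 and 8.07 for WT, 10.31, 10.48 and 10.61 for Dgcr8 KO and 10.26, 10.26 and 10.33 for Dicer KO. It rose by 2.45 (adjusted p = 3.58e-08) and 2.26 (adjusted p = 3.32e-08), and the direct difference of 0.19 did not pass (adjusted p = 0.099), but did without Dgcr8 KO replicate 1 (adjusted p = 0.0184). Bmp4, a signalling ligand, had log2 levels of 8.67, 8.98 and 8.93 for WT, 6.67, 6.64 and 6.66 for Dgcr8 KO and 6.79, 6.90 and 6.83 for Dicer KO. Its log2 ratios to WT were -2.20 (adjusted p = 9.75e-08) and -2.02 (adjusted p = 9.01e-08). Sfrp1 and Ccnd2 thus rose where Bmp4 fell, in both mutants. The log2 ratio of Mycn to WT was -0.81 (adjusted p = 6.08e-07) in Dicer KO and -0.04 (adjusted p = 0.555) in Dgcr8 KO, and that of Olig2, a neural progenitor factor, was -0.46 (adjusted p = 0.000578) and 0.14 (adjusted p = 0.187). The direct differences were 0.76 (adjusted p = 3.25e-06) for Mycn, 0.60 (adjusted p = 0.000251) for Olig2 and 0.30 (adjusted p = 0.00106) for Ccnd1. All 3 were higher in Dgcr8 KO than in Dicer KO. The targets Foxa2, Nkx2-2, Nkx6-1, Foxf1, Bcl2, Snai1 and Igfbp6 were not called in any comparison.

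**Figure D2:**
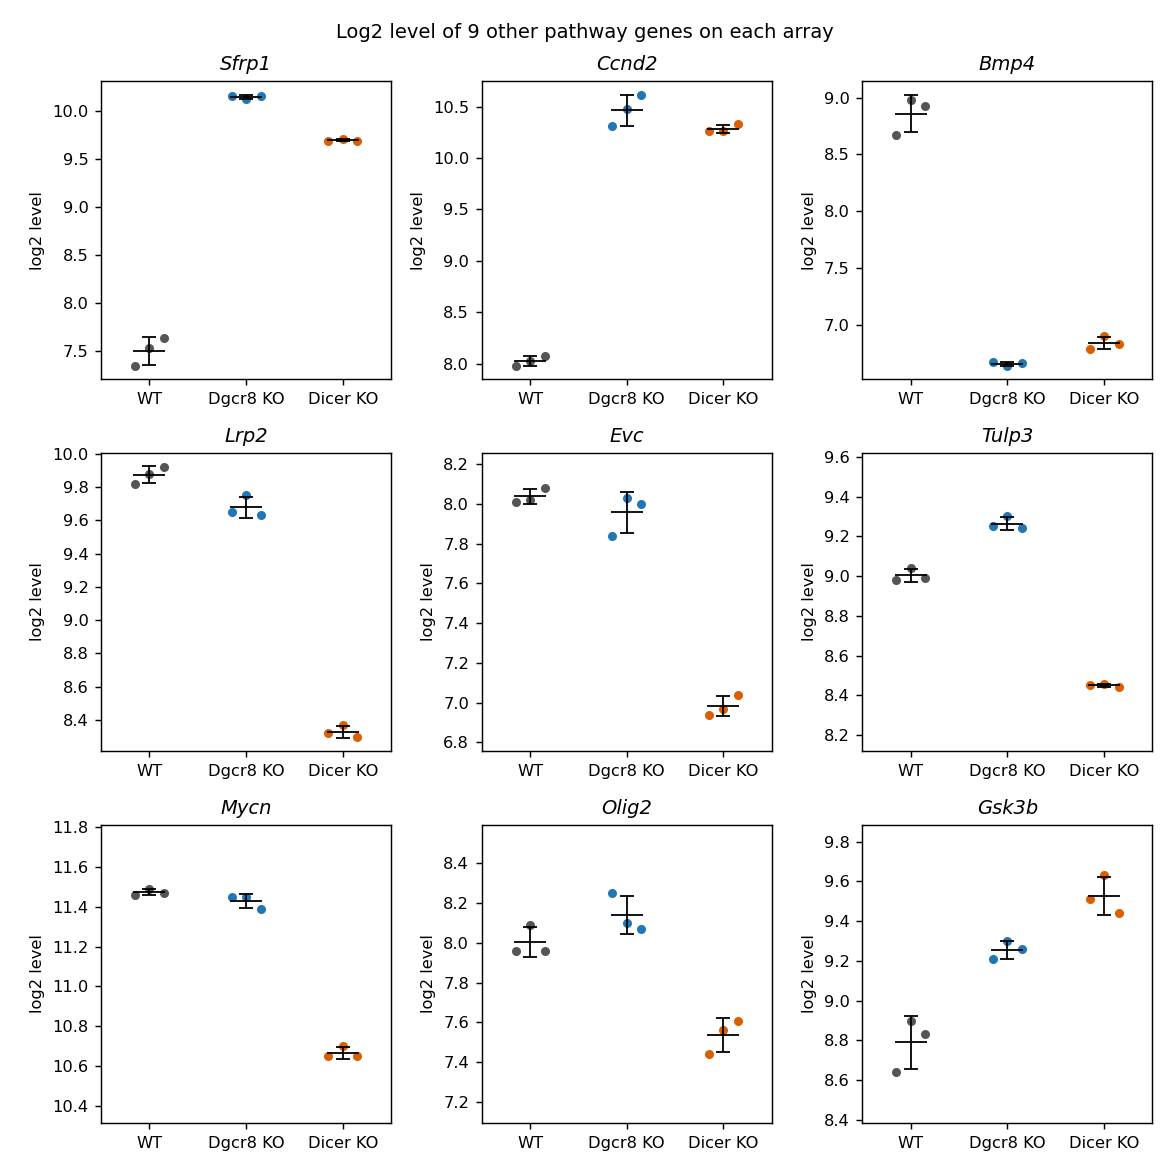
Log2 level of 9 other pathway genes (vertical axis, log2 scale, a separate range in each panel) on the 3 arrays of each genotype, with the mean and SD. Sfrp1 and Ccnd2 lie above 9.6 on all mutant arrays and below 8.1 on all WT arrays. Bmp4 lies at 8.67 to 8.98 in WT and at 6.90 or less on every mutant array. Lrp2, Evc, Tulp3, Mycn and Olig2 are lowest in Dicer KO.

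The genes around Hhip did not share its rise. On chromosome 8 the nearest measured genes were Anapc10, Abce1 and Otud4 on 1 side, beginning 188529 bases from Hhip, and 4930505O20Rik, Frem3 and Smarca5 on the other, beginning 454429 bases away. Abce1, which recycles ribosomes, had log2 ratios to WT of -0.31 (limma adjusted p = 0.00135) in Dgcr8 KO and -0.16 (adjusted p = 0.0439) in Dicer KO, the latter lost when any 1 array other than Dgcr8 KO replicate 2 or 3 was left out (adjusted p from 0.0524 to 0.133). The other 5 were not called against WT, with log2 ratios from -0.19 (4930505O20Rik) to 0.14 (Smarca5) in Dgcr8 KO and from -0.11 (Frem3) to 0.26 (Smarca5) in Dicer KO. Otud4 passed in Dgcr8 KO without Dgcr8 KO replicate 2 (-0.21, adjusted p = 0.0215).

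The transcripts whose levels followed Hhip most closely over the 9 arrays were Idh2, a mitochondrial isocitrate dehydrogenase, Ly75, an endocytic receptor, Cep55, a midbody protein, Ccdc141 and Tbc1d8, with Pearson's r between 0.9976 and 0.9984. Ly75 and Ccdc141 had the larger ratios to WT, on the log2 scale 2.26 and 2.40 (Dgcr8 KO) and 1.78 and 2.01 (Dicer KO), whereas those of Tbc1d8 were 0.94 and 0.73. Those closest to Ptch1 were Lrrc2, Dock6, Smpdl3b, Gne and Fgfr1, the last a receptor of fibroblast growth factors, with r between 0.989 and 0.996. The 9 arrays are 3 arrays each of 3 genotypes, so that r mostly measures the order and spacing of 3 genotype means, and it is given as a description.

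Markers of other cell types were examined beside these results. Of 13 clusters of primitive and visceral endoderm markers, Dgcr8 KO had 1 above and 2 below WT and Dicer KO had 0 above and 3 below, and their mean log2 level was 5.93 to 6.07 in WT, 5.69 to 5.87 in Dgcr8 KO and 5.63 to 5.70 in Dicer KO. Of 10 fibroblast and feeder markers, Dgcr8 KO had 2 above and 0 below WT and Dicer KO had 1 above and 1 below, with mean log2 levels of 6.39 to 6.57, 6.44 to 6.61 and 6.37 to 6.41. Of 8 trophoblast markers, Dgcr8 KO had 2 above and 2 below WT and Dicer KO had 4 above and 0 below, with mean log2 levels of 7.00 to 7.04, 7.14 to 7.21 and 7.29 to 7.41. The shares called in Dgcr8 KO and in Dicer KO were alike, 23.1% of the endoderm, 20% of the fibroblast and 50% of the trophoblast clusters, against 33.0% and 36.9% of all transcripts. Foxa2 stands in both the endoderm list and the list of target genes. The part of these markers in the changes of Hhip and the other pathway genes was not tested.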

How the data were processed

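Total RNA of ES cells of 3 genotypes was hybridized to 9 Affymetrix mouse gene arrays, 3 per genotype. The authors deposited normalized log2 values, 1 per transcript cluster and array. The methods name RMA and the processing notes name GCRMA, without versions, and no further normalization was applied. Of 35557 clusters, 23410 carry a symbol in the platform annotation, and 22980 were counted after clusters of miRNA genes only, mitochondrial and chromosome Y clusters were left out. Signal over background was not given, so that the number of arrays limits the precision. All 9 members passed the filter on dim transcripts used as an alternative.

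With limma 3.58.1 in R 4.3.3, 1 model with a mean for each genotype was fitted to the 9 arrays (6 residual degrees of freedom). The Benjamini-Hochberg adjustment covered the 22980 transcripts, and those with an adjusted p under 0.05 were called. The script was tested on simulated data. The members and gene lists were chosen with earlier results of these data known. Named genes were the 9 members, the 3 called genes of smallest adjusted p per list and comparison, the 3 nearest genes on each side of Hhip, the 5 transcripts of 1 symbol (predicted genes passed over) most correlated with Hhip and with Ptch1, and Dgcr8 and Dicer1. Genes of the lists named as not called, those named in a figure caption and the markers named in the closing observations lie outside that rule and were chosen after their values were seen. Arl13b, Grk2 and Prkaca had no cluster with 1 symbol and are not covered. Sequences and positions came from RefSeq (GRCm38.p6). Alternatives were SAM, 2 genotypes per fit, other scalings, variance models, array weights, transcript filters and thresholds, the replicate number as a block, and leaving out arrays.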

Additional observations from a re-analysis of the deposited data

Results flagged for a closer look

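Ptch1 and Gli3 were called higher than WT in Dgcr8 KO and lower than WT in Dicer KO, and the difference between the mutants itself passed the limma test. For Ptch1 the log2 ratios were 0.24 and -0.46, and the direct difference was 0.70 (adjusted p = 1.66e-05). For Gli3 they were 0.38 and -0.35, with a direct difference of 0.73 (adjusted p = 9.09e-06). The rise of Ptch1 in Dgcr8 KO was called in 20 of 22 alternatives and was lost by SAM and at 1.5-fold or more. The ratios of Gli3 and that of Ptch1 in Dicer KO were each called in 21 of 22 and lost at 1.5-fold or more. Both direct differences were called in 22 of 22 alternatives, from 0.65 to 0.78 for Ptch1 and from 0.68 to 0.76 for Gli3. The ratios of the 2 mutants share the WT arrays.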

How the results depend on the processing

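Each count and ratio was recomputed under 22 alternatives, of which 1, without both WT replicate 1 and Dgcr8 KO replicate 2, was added after the data were seen. The direction of every ratio of Hhip, Smo, Gli1, Gli3 and Ptch1 was kept in all of them. Only other scalings, array weights and leaving out an array of a genotype compared can change a ratio. In the other alternatives the direction was fixed in advance, and only the call could change. For Hhip against WT the direction was also part of the reason for its choice. Without Hhip, the 4 members called in Dgcr8 KO became 2 by SAM and 0 at 1.5-fold or more, and the 4 called in Dicer KO became 1 and the 4 called between the mutants 2 at 1.5-fold or more. The other pathway clusters called went from 15 to 6 by SAM and 3 at 1.5-fold or more in Dgcr8 KO, from 21 to 9 at 1.5-fold or more in Dicer KO, and from 14 to 24 by SAM and 5 at 1.5-fold or more between the mutants. Over all transcripts the counts also fell at 1.5-fold or more in each comparison. They fell by SAM in Dgcr8 KO and rose by SAM between the mutants. The constant that SAM adds to the standard errors was 0.7405 and 0.4691 against WT in Dgcr8 KO and Dicer KO and 0.1626 between the mutants. Leaving out 1 array at a time gave 4 members in Dgcr8 KO, 4 to 5 in Dicer KO and 4 between the mutants. It gave 12 to 18, 19 to 22 and 11 to 18 other clusters. Over all 22980 transcripts these fits called 3212 to 3628 higher and 3343 to 4261 lower in Dgcr8 KO. In Dicer KO they called 3590 to 4080 higher and 3567 to 4372 lower. Between the mutants they called 1883 to 3001 higher and 2300 to 3565 lower in Dgcr8 KO. Between arrays of the same replicate number, r of the deviations ran from -0.1995 to 0.344. Of 9 arrays, 4 were closest to an array of their own number in another genotype. Whether the numbers pair the arrays is not settled by these values. With the replicate block, 4 members were called in each comparison, and 16, 25 and 15 other clusters. With it Abce1 in Dicer KO was no longer called (adjusted p = 0.0717), while Evc2 in Dgcr8 KO (0.0191), Smarca5 in Dicer KO (0.0264) and Otud4 between the mutants (0.0365) passed. No other call among the named genes changed.

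Of the ratios of single genes recomputed, 2637 kept direction and call, 96 lost the call, 61 gained it and 38 changed sign. Changes of sign were limited to ratios that were not called, with adjusted p of 0.299 or more. Against WT in Dgcr8 KO, with array weights Dhh was at 0.02, Shh at 0.01 and Frem3 at 0.04. With both of the 2 arrays named above left out, Gli2 and Smarca5 were at -0.01, Dhh at 0.06, Shh at 0.09 and Frem3 at 0.07. With quantile normalization repeated Mycn was at 0.04 and Frem3 at 0.01, and with cyclic loess Mycn was at 0.03. Against WT in Dicer KO, Ihh was at 0.05 with array weights and 0.09 without those 2 arrays. Between the mutants, Shh was at -0.00 with arrays centred on their medians and -0.01 with either other scaling, Dhh at -0.00 with cyclic loess, Btrc at 0.05 with quantile normalization and 0.02 with cyclic loess, Disp1 at 0.01 with quantile normalization, and Sufu at -0.03 with centred arrays. Leaving out 1 array at a time gave -0.17 to 0.29 for Ihh, -0.09 to 0.07 for Dhh, -0.15 to 0.00 for Shh, -0.23 to 0.03 for Anapc10, -0.03 to 0.04 for Frem3 and -0.01 to 0.10 for Ulk3 in Dgcr8 KO. It gave -0.37 to 0.09 for Ihh and -0.05 to 0.20 for 4930505O20Rik in Dicer KO. Between the mutants it gave -0.01 to 0.13 for Shh, -0.01 to 0.15 for Dhh, -0.05 to 0.01 for Btrc and -0.07 to 0.00 for Disp1. The cause of these shifts was not tested.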

Other observations

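Cubn (cubilin), which binds ligands together with Lrp2 in endocytosis, was among the endoderm markers and was lower in both mutants. Its log2 levels were 6.46, 6.68 and 6.76 for WT, 5.50, 5.33 and 5.28 for Dgcr8 KO and 5.27, 5.09 and 5.16 for Dicer KO, with no overlap between WT and the mutants. The log2 ratios to WT were -1.26 (limma adjusted p = 5.92e-06) and -1.46 (adjusted p = 1.69e-06). Dab2, an endocytic adaptor of Lrp2, had log2 ratios of -1.13 (adjusted p = 1.95e-06) and -1.15 (adjusted p = 1.27e-06) in 1 of its 2 clusters, and 0.24 and -0.09, not called, in the other. Amn, the membrane anchor of cubilin, was not called (-0.19 and -0.24). Lrp2 itself was strongly lower in Dicer KO, with a ratio of only -0.19 in Dgcr8 KO. Of the other endoderm markers, Gata4 was called higher than WT in Dgcr8 KO (0.35, adjusted p = 0.00535). In Dicer KO its ratio was -0.17 (adjusted p = 0.119), with a direct difference of 0.52 (adjusted p = 0.000983). Sox7 was called lower in Dicer KO only (-0.31, adjusted p = 0.0242). Gata6, Sox17, Pdgfra, Afp, Ttr, Hnf4a and Foxa2 were not called in any comparison. The genes of this paragraph were singled out after their values were seen.

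Among the trophoblast markers, Plet1 in Dgcr8 KO rose by 1.35 (adjusted p = 8.32e-07) and in Dicer KO by 1.05 (adjusted p = 2.63e-06), and Tead4, a transcription factor of the early trophectoderm, by 1.05 (adjusted p = 1.18e-06) and 0.88 (adjusted p = 2.53e-06). Krt7 had log2 ratios of -0.92 (adjusted p = 2.77e-05) in Dgcr8 KO and 0.13 (adjusted p = 0.285) in Dicer KO, with a direct difference of -1.05 (adjusted p = 2.87e-05). Cdx2, a defining factor of the lineage, had log2 ratios of -0.24 (adjusted p = 0.0476) and -0.22 (adjusted p = 0.06). Gata3 and Elf5 were called higher than WT in Dicer KO only, by 0.44 (limma adjusted p = 0.00397) and 0.41 (adjusted p = 0.000876). Eomes and Hand1 were not called in any comparison. Plet1, Tead4, Krt7 and Cdx2 were singled out after their values were seen.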
